A study of Helianthus annuus with 6 samples.

Results

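Petioles of sunflower (Helianthus annuus) express many transcripts from loci that carry no RefSeq gene identifier in the deposited values. The loci described here are the abundant ones among them: 200 new loci, assembled by the authors, whose level was high in every library of both inbred lines studied. They were chosen by level, from the files' identifiers that contain the word newGene. The 100 loci of any kind with the highest mean FPKM were left out, the remaining 13709 new loci were ranked by their lowest FPKM among the 6 libraries, and the top 200 were taken. The files list 70842 loci, of which 13716 are new loci and 57126 are RefSeq genes. FPKM is a level per unit of length: fragments of a locus divided by its length and by the size of the library. In the names below, the prefix Helianthus_annuus_ that all new loci share is left off.

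A new locus is a stretch of genome where sequenced fragments pile up into a transcript model that the reference annotation used for counting does not contain. Such models can come from unlisted protein-coding genes, long non-coding RNAs, transcribed pseudogenes or repeats, and untranslated parts of a known gene that the annotation cuts short. The petiole carries the leaf blade and holds vascular strands, cortex and epidermis. The angle at which it stands is set by how its upper and lower sides grow, and by the stiffness of their cell walls. The files attach no product, sequence or position to any of the 200 loci, so no function is given to them here. None of the 200 identifiers matched an entry of the RefSeq gene table of the assembly HanXRQr2.0-SUNRISE. The newGene identifiers are not RefSeq names, so this match by name could not show whether a locus is listed there. The 57126 RefSeq identifiers of the files were all protein-coding in that table. The table also holds 17800 long non-coding RNA genes and 2287 pseudogenes, and 0 of either were among the identifiers in the files. Whether a new locus coincides with one of them was not tested.

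RNA was sequenced from bulk petiole tissue of the leaf-flat line 19G, which has a large petiole inclination angle, and the leaf-compact line 20G, which has a small one. Each line had 3 libraries, numbered as replicates 1 to 3 in the titles. The labels give no age, growth condition, treatment or agent for either line, and they do not say whether each library is a plant of its own. The p-values therefore cover the spread among these 6 libraries, which may be technical. Because leaf form and line coincide, the effect of petiole angle and that of any other contrast of 19G and 20G cannot be told apart. In bulk tissue, fewer cells of a type and less RNA per cell cannot be told apart.

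Of the libraries, 19G replicate 1 stood apart from its line in an earlier account of these data. It was the lowest of the 6 libraries in 118 of the 200 loci (59.0%), a count that changes with scaling, as given below. Most of the minima that chose the loci are therefore values of that library. Among the 25828 loci that reached 1 FPKM in at least 3 libraries and were above 0 in all 6, 19G replicate 1 was the lowest in 39.2%. Results that rest on it are given with and without it. Summed FPKM ran from 638235 to 701884 per library, and sequencing depth is unknown.

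The loci reached levels that place them among the more abundant petiole transcripts, which is what the rule selected. Their mean FPKM over the 6 libraries ran from 20.2 to 505.1, with a median of 44.7, and their places by mean among all 70842 loci ran from 114 to 6218. There were 12 loci with a mean under 25 FPKM, 104 from 25 to 50, 46 from 50 to 100, 23 from 100 to 200 and 15 of 200 or more. A minimum as high as that of the last locus chosen was reached by 4604 loci of the files, and 4397 of these were RefSeq genes. New loci with so high a floor are therefore few: 9032 of the 13716 new loci were listed at 0 in at least 1 library, and 2061 in all 6. The 7 new loci left out with the 100 most abundant transcripts averaged between 535.5 and 2563 FPKM.

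**Figure D1:**
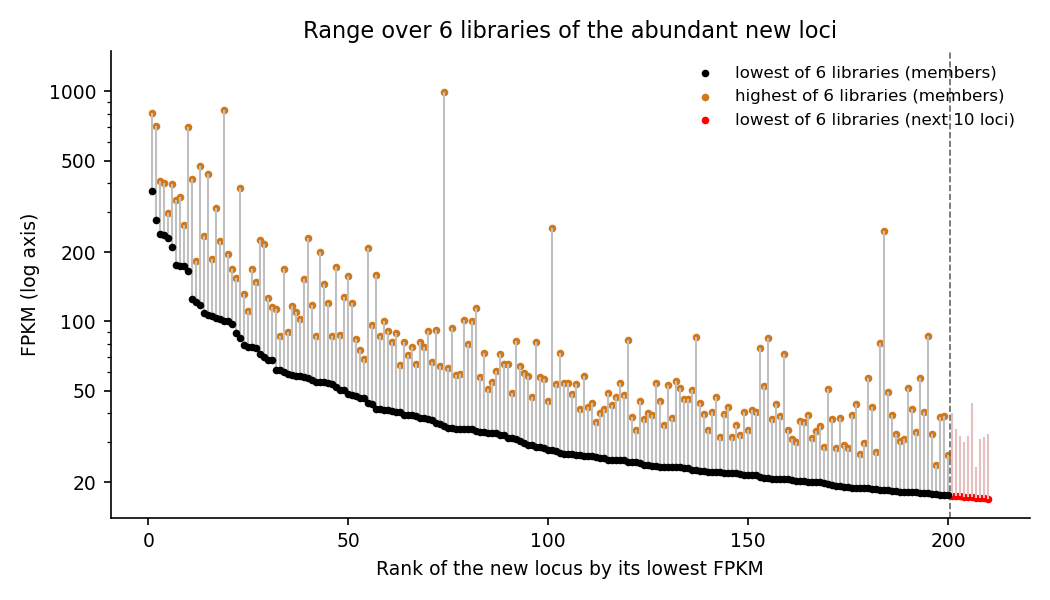
Lowest (black) and highest (orange) FPKM over the 6 libraries, on a log axis, for each of the 200 chosen loci against its rank by the lowest value, with the lowest values of the next 10 loci in red after the dashed line. Grey lines join the lowest and highest value of a locus, and the minimum falls from 369.7 FPKM at the first rank to 17.5 at rank 200.

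The locus with the highest floor was newGene_500, at 489.6, 437 and 477 FPKM in 19G replicates 1 to 3 and 369.7, 803 and 455 in 20G. The 3 values of 19G lay within the range of those of 20G, whose replicate 2 was the highest of the 6. The next was newGene_14924, at 336, 277 and 429.9 FPKM in 19G and 579, 704 and 523 in 20G. All 3 values of 20G were above those of 19G in this locus, which did not pass the test between lines given below. It was followed by newGene_28745, which stood at 239.98, 336 and 382 FPKM in 19G and 325, 318 and 407 in 20G, and the lines overlapped. newGene_29538 stood at 326, 348 and 236.5 FPKM in 19G and 265, 399.5 and 244 in 20G, again with overlap. newGene_22610 was the steadiest of the 200, at 297, 231 and 241 FPKM in 19G and 240.4, 254 and 237 in 20G. In newGene_14980, 19G replicate 1 was the lowest library at 210.1 FPKM, while 19G replicates 2 and 3 stood at 363 and 367, and 20G at 306, 395 and 282.

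At the lower end of the ranking, the last loci taken and the first ones passed over had like values. The last 3 loci taken, newGene_9396, newGene_3345 and newGene_14055, had minima of 17.7, 17.5 and 17.5 FPKM. The first 3 passed over, newGene_28381, newGene_16465 and newGene_21540, had minima of 17.4, 17.4 and 17.4 FPKM. The edge of the set is therefore a place in a continuous ranking and not a gap.

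Although every chosen locus was abundant throughout, levels moved between libraries. The highest value of a locus was between 1.29 and 28.3 times its lowest, with a median of 1.95. In 111 loci the highest value was under 2 times the lowest, and in 17 it was under 1.5 times. The coefficient of variation between the 3 libraries of a line had a median of 23.9% in 19G and 19.8% in 20G, and it was larger in 19G in 117 of the 200 loci.

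Most loci followed a common course over the libraries within each line. Their median level was 34.0 FPKM in 19G replicate 1, against 46.6 and 43.4 in 19G replicates 2 and 3. In 20G it was 52.4 FPKM in replicate 2, against 38.9 and 40.0 in replicates 1 and 3. The lowest library of 19G was replicate 1 in 158 loci, and the highest library of 20G was replicate 2 in 161. Over all 6 libraries, 19G replicate 1 was the lowest in 59.0% of the loci and 20G replicate 2 the highest in 51.0%, and both held in 76 loci. Among the 4397 RefSeq genes with the same floor, 19G replicate 1 was the lowest of the 6 in 32.3% and 20G replicate 2 the highest in 23.0%. The ratio of 19G replicate 1 to the mean of 19G replicates 2 and 3 had a median of 0.691 over the new loci and 0.928 over those RefSeq genes. The ratio of 20G replicate 2 to the mean of the other 2 libraries of 20G had a median of 1.30 over the new loci and 1.03 over the RefSeq genes. These shares and ratios are descriptions of single libraries, with no test.

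**Figure D2:**
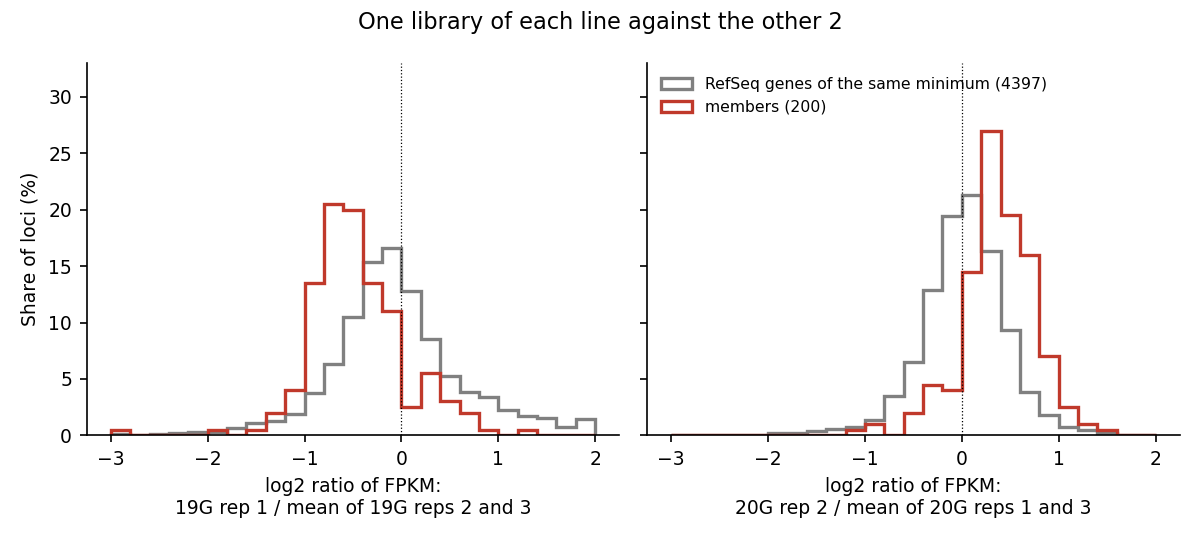
Share of loci (%) by the log2 ratio of FPKM in 19G replicate 1 to the mean of 19G replicates 2 and 3 (left) and in 20G replicate 2 to the mean of 20G replicates 1 and 3 (right), in bins of 0.2, for the 200 new loci (red) and the 4397 RefSeq genes of the same floor (grey). Ratios beyond the axis are counted in the end bins. The red outline lies left of the grey one in the left panel (medians 0.691 and 0.928 as ratios) and right of it in the right panel (1.30 and 1.03).

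How much of this order stays depends on how the libraries are scaled. With median-of-ratios scaling, which sets the typical locus equal between libraries, 19G replicate 1 was the lowest of the 6 in 67 of the 200 loci in place of 118, and 20G replicate 2 the highest in 115 in place of 102. With quantile normalization the counts were 90 and 88. The RefSeq genes of the same floor had 19G replicate 1 lowest in 13.3% and 20G replicate 2 highest in 23.8% under the first scaling, and in 21.7% and 18.7% under the second. Both scalings were applied to this count after its value had been seen.

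**Figure D3:**
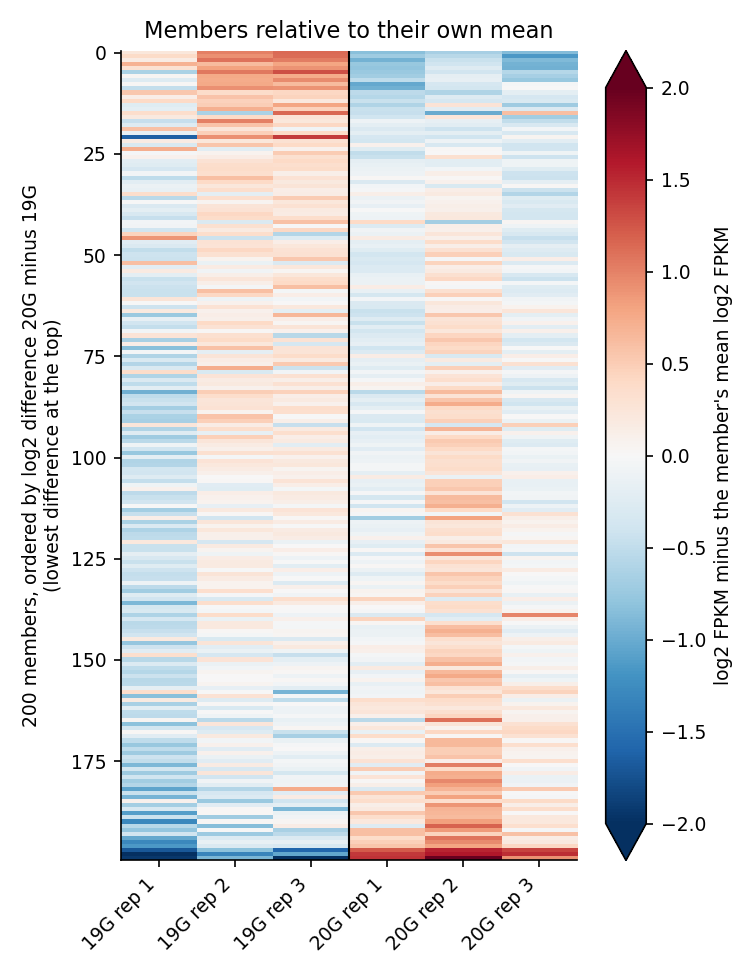
Each row is 1 of the 200 new loci and each column 1 library, coloured by log2 FPKM minus the mean log2 FPKM of that locus over the 6 libraries. Rows are ordered by the log2 difference 20G minus 19G, from -1.58 at the top to 3.31 at the bottom, and the columns of 19G replicate 1 and 20G replicate 2 are mostly blue and mostly red.

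Some loci departed by more than the common course. Set against the mean of the remaining pair of libraries of its line, 19G replicate 1 was at least 2-fold away in 16 loci, 15 of them lower, and 20G replicate 2 in 9 loci, 8 of them higher. The other 4 libraries had 3 or 4 such loci each. These counts are 8.0% of the 200 loci in 19G replicate 1, against 23.8% of all tested loci and 13.7% of the RefSeq genes of the same floor, and 4.5% in 20G replicate 2, against 11.2% and 3.66%. The lowest ratio was that of newGene_17806, at 100.6 FPKM in 19G replicate 1 against 588 and 826 in 19G replicates 2 and 3, with 249, 239 and 324 in 20G. Its lines overlapped because of that single library. newGene_21899 had 115.0 FPKM in 19G replicate 1 but 369 and 436 in replicates 2 and 3, with 106, 137 and 119.5 in 20G, so that 19G replicate 1 lay among the 20G values. newGene_8859 had 18.8 FPKM in 19G replicate 1 but 51.4 and 50.6 in replicates 2 and 3, with 25.3, 56.9 and 34.8 in 20G.

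A few loci went the other way in 19G replicate 1. newGene_1211 stood at 91.4 FPKM there, against 36.7 and 41.3 in 19G replicates 2 and 3 and 55.1, 52.9 and 36.0 in 20G, a ratio of 2.34. newGene_23216 stood at 44.95 FPKM in that library against 27.0 and 24.2, with 23.4, 40.1 and 24.4 in 20G. newGene_9396 stood at 38.2 FPKM against 20.0 and 24.4, with 19.6, 23.5 and 17.7 in 20G. In these 3 loci 19G replicate 1 was the highest of the 6 libraries. The 3 loci in which 20G replicate 2 stood furthest above its line, named after their values were seen, were newGene_7520, newGene_846 and newGene_14808. newGene_846 was at 72.7, 225 and 112 FPKM in 20G replicates 1 to 3 and at 107.6, 72.2 and 95.1 in 19G. newGene_14808 was at 55.4, 127 and 50.2 in 20G and at 58.6, 62.7 and 67.6 in 19G.

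The level of these loci in 20G was then set against that in 19G. The fit covered the 28292 loci that reached 1 FPKM in at least 3 libraries, a filter that all 200 passed by construction. Differences are on the log2(FPKM + 1) scale and are 20G minus 19G. A locus was called at a Benjamini-Hochberg adjusted p under 0.05 from limma and a difference of at least 1 in size. The test called 10 of the 200 (5.0%), 5 higher and 5 lower in 20G, against a background of 17.1% of all tested loci, 8.44% higher and 8.7% lower. A locus with a high floor in both lines cannot be listed at 0 in either, so the rule limits this count and nothing is read from its distance to the background. Among RefSeq genes with the same floor, 3.53% were called, 2.48% higher and 1.05% lower. Past an adjusted p of 0.05 whatever the size were 14 of the 200 (7.0%), 5 higher and 9 lower. The background was 20.6% of all tested loci (10.2% higher and 10.4% lower). Of the RefSeq genes of the same floor, 7.3% passed, 4.32% higher and 2.98% lower.

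Without 19G replicate 1 the count of called loci was 15 (7.5%), 4 higher and 11 lower in 20G. The background was then 20.1% of all tested loci (9.34% higher and 10.8% lower). Of the RefSeq genes of the same floor, 5.75% were called, 3.91% higher and 1.84% lower. The 3 values of one line lay wholly above those of the other in 38 of the 200 loci (19.0%), 25 higher and 13 lower in 20G. The background was 34.4% of all tested loci (18.0% higher and 16.4% lower). Of the 4397 RefSeq genes of the same floor it was 24.4%, 573 genes higher and 498 lower. Without 19G replicate 1, 72 of the 200 loci had no overlap, 30 higher and 42 lower, with 5 libraries in place of 6. The background was then 54.6% of all tested loci (23.5% higher and 31.2% lower). Of the RefSeq genes of the same floor it was 48.4%, 1043 genes higher and 1086 lower. The rule limits these counts too, so nothing is read from their distance to all tested loci. The median difference over the 200 loci was 0.09, beside 0.02 over all tested loci. It turned to -0.05 when 19G replicate 1 was left out and to -0.08 when 20G replicate 2 was, so its sign rests on single libraries.

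**Figure D4:**
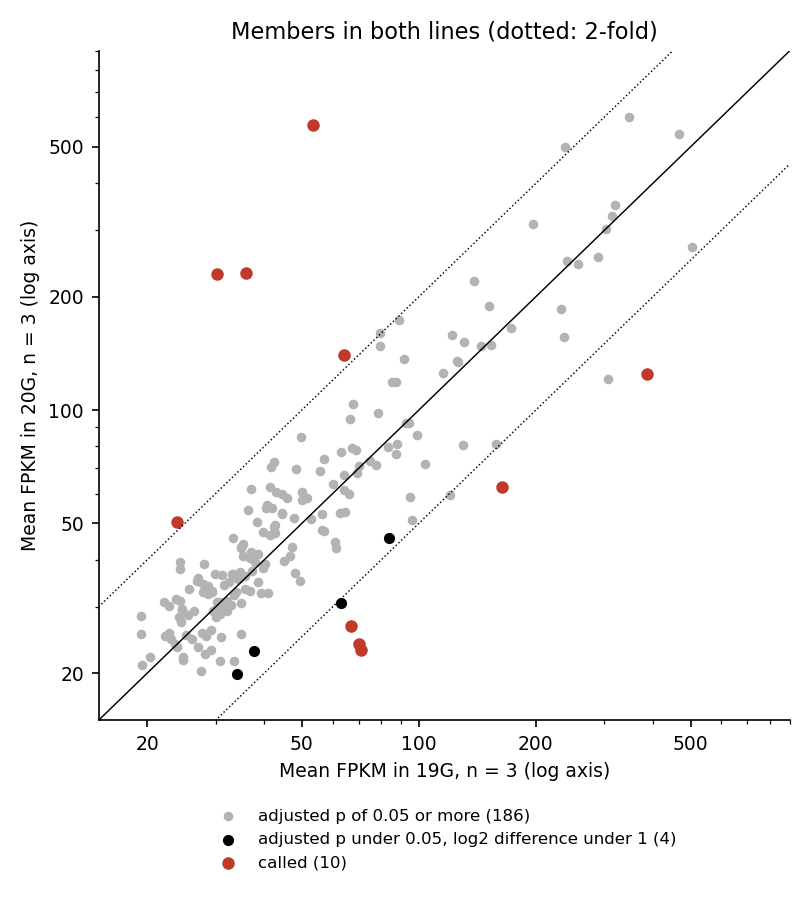
Mean FPKM in 20G against mean FPKM in 19G (n = 3 libraries each, both axes log) for the 200 new loci, with the 10 called loci in red and the 4 loci past the adjusted p alone in black. The solid line marks equal means and the dotted lines 2-fold, and 3 red points stand far above the upper dotted line, at 230.3, 231.5 and 571 FPKM in 20G.

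Most of the loci differed little. The difference was under 0.25 in size in 111 loci, under 0.5 in 158 and under 1 in 187. Its 95% interval lay within -1 and 1 in 142 loci. Of the 186 loci that did not pass the adjusted p, 44 had an interval that reached 1 or more in size, so in those loci the data leave room for a 2-fold difference. The median standard error was 0.26 over the 200 loci and 0.23 over all tested loci.

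In 3 loci the lines differed by over 2 on the log2 scale, and all 3 were higher in the compact line 20G. newGene_7520 stood at 41.1, 83.9 and 35.0 FPKM in 19G and at 427, 989.8 and 297 in 20G. The lines were far apart, and 20G replicate 2 was more than 2 times each of the other 2 libraries of its line. The mean was 53.3 ± 26.6 FPKM for the 19G libraries and 571 ± 368 for the 20G libraries (SD, n = 3), and the log2 difference was 3.31 (SE 0.51, limma adjusted p = 0.0028). newGene_14528 stood at 18.5, 32.7 and 39.7 FPKM in 19G and at 218, 247 and 226 in 20G. Its libraries of 20G lay close together, and those of 19G were spread more widely. The log2 difference was 2.95 (SE 0.29, limma adjusted p = 0.00025). newGene_16064 stood at 27.5, 50.6 and 29.6 FPKM in 19G and at 209.9, 256 and 229 in 20G, with no overlap and a log2 difference of 2.70 (SE 0.26, limma adjusted p = 0.00025). All 3 kept their call in each of the 15 alternative fits.

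The other 2 loci called as higher in 20G differed by little over 2-fold. newGene_29706 stood at 41.6, 76.1 and 74.4 FPKM in 19G and at 136.5, 159 and 123 in 20G. The lines did not overlap, and the lowest value was that of 19G replicate 1. The log2 difference was 1.16 (SE 0.27, limma adjusted p = 0.022), and the call was lost without 19G replicate 1, at 0.88, with array weights, at 0.83, and without each library of 20G in turn. newGene_7474 stood at 26.4, 21.0 and 24.1 FPKM in 19G and at 52.2, 46.9 and 51.8 in 20G, with little spread in either line. The log2 difference of 1.05 (SE 0.16, limma adjusted p = 0.003) came to 0.96 without 19G replicate 2 and to 0.995 under quantile normalization, both under the size required.

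The 5 loci called as lower in 20G were 2.51 to 3.10 times as high in 19G, as a ratio of mean FPKM. newGene_11508 stood at 252, 435 and 474 FPKM in 19G and at 120.3, 135.5 and 118 in 20G. The 20G libraries agreed closely while 19G replicate 1 was the lowest of its line. The means were 387 ± 119 and 124.7 ± 9.40 FPKM (SD, n = 3), and the log2 difference was -1.58 (SE 0.28, limma adjusted p = 0.0056). newGene_2242 stood at 52.0, 75.0 and 86.5 FPKM in 19G and at 24.2, 27.1 and 18.0 in 20G, which gave a log2 difference of -1.57 (SE 0.25, limma adjusted p = 0.0035). newGene_11058 stood at 44.6, 85.1 and 81.2 FPKM in 19G and at 20.8, 29.4 and 21.7 in 20G, which gave a log2 difference of -1.47 (SE 0.29, limma adjusted p = 0.0095). In both, 19G replicate 1 was again the lowest of its line and still above all of 20G.

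In newGene_2790 the 19G libraries were close together, at 163, 155 and 173 FPKM, and the 20G libraries stood at 59.2, 75.7 and 52.0. The lines were well separated, with a log2 difference of -1.39 (SE 0.19, limma adjusted p = 0.0017). newGene_4802 stood at 51.1, 72.7 and 76.9 FPKM in 19G and at 24.0, 34.7 and 21.2 in 20G, which gave a log2 difference of -1.31 (SE 0.25, limma adjusted p = 0.009). These 5 loci were called under each of the 15 alternatives.

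**Figure D5:**
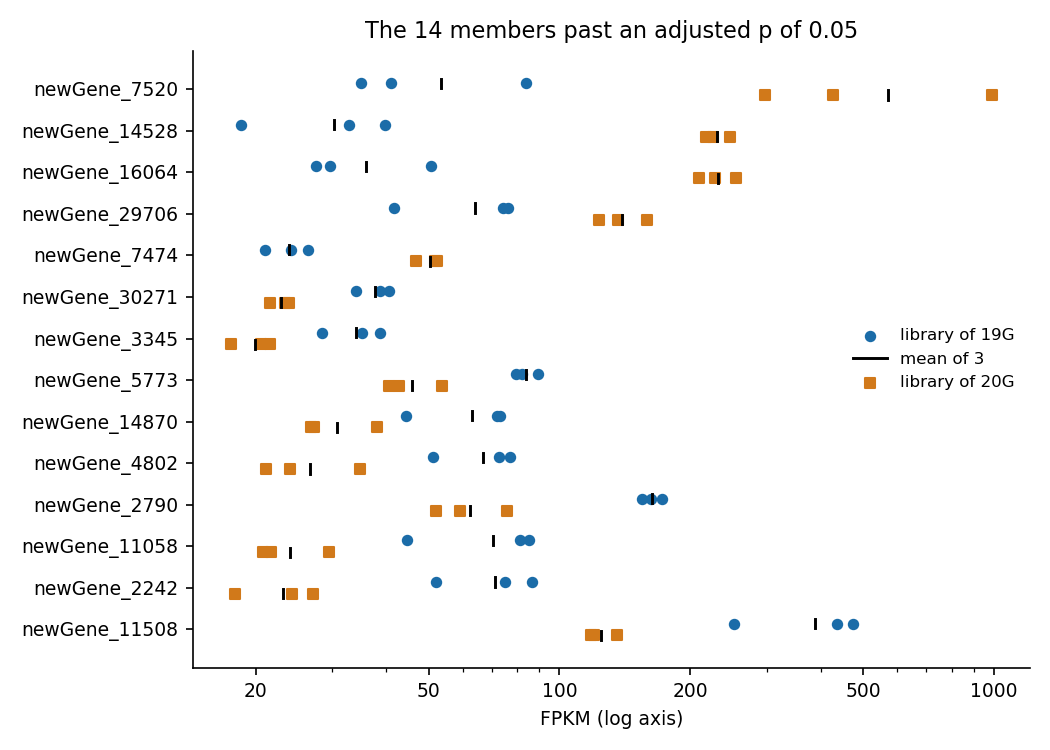
FPKM on a log axis in each library for the 14 new loci past an adjusted p of 0.05, ordered from the largest increase in 20G at the top to the largest decrease at the bottom. Blue circles are the 3 libraries of 19G, orange squares the 3 of 20G, black ticks their means, and the lines do not overlap in any of the 14 loci.

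The 4 loci past the adjusted p with a smaller difference were all lower in 20G. newGene_5773 stood at 89.2, 79.6 and 82.1 FPKM in 19G and at 42.9, 40.6 and 53.7 in 20G, which gave a log2 difference of -0.87 (SE 0.18, limma adjusted p = 0.011). newGene_30271 stood at 38.6, 40.5 and 34.1 FPKM in 19G and at 21.6, 23.3 and 23.8 in 20G, which gave a log2 difference of -0.69 (SE 0.16, limma adjusted p = 0.018). Both had narrow spreads within each line. newGene_3345 stood at 28.5, 38.6 and 35.2 FPKM in 19G and at 17.5, 21.5 and 20.6 in 20G, which gave a log2 difference of -0.74 (SE 0.18, limma adjusted p = 0.027). newGene_14870 stood at 44.3, 72.9 and 72.1 FPKM in 19G and at 26.8, 38.1 and 27.3 in 20G, which gave a log2 difference of -0.999, just under the size required (SE 0.26, limma adjusted p = 0.032). Each of these 4 fell short of the adjusted p when 1 or more of the libraries was left out.

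In 172 of the 200 loci, 19G replicate 1 lay below the mean of 19G replicates 2 and 3. Without a low library of 19G, the difference of a locus tends to move toward lower in 20G. Nothing is therefore read from the direction of calls gained in this way. Leaving out 19G replicate 1 added 6 loci to those called, all lower in 20G, and removed newGene_29706. Besides newGene_14870, newGene_21899 and newGene_17806, these were newGene_11658, newGene_3430 and newGene_9736, named after their values were seen. newGene_11658 stood at 199.7 and 198.2 FPKM in 19G replicates 2 and 3 and at 54.4, 82.6 and 106 in 20G, with 76.6 in 19G replicate 1. Its log2 difference was -1.34 without that library (limma adjusted p = 0.02) and -0.88 with it (limma adjusted p = 0.24). newGene_3430 stood at 68.1, 136 and 157 FPKM in 19G and at 57.2, 72.8 and 48.4 in 20G, with a difference of -1.30 without 19G replicate 1 and -0.94 with it. newGene_9736 stood at 68.8, 115 and 105 FPKM in 19G and at 33.4, 53.6 and 66.3 in 20G, with a difference of -1.14 without that library and -0.92 with it. For newGene_21899 the difference went from -1.13 (limma adjusted p = 0.18) to -1.73, and for newGene_17806 from -0.45 (limma adjusted p = 0.78) to -1.38.

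Of the 13 loci with a difference of at least 1 in size, 3 did not pass the adjusted p: newGene_21899, newGene_10515 and newGene_30034. newGene_10515 stood at 44.0, 97.4 and 96.3 FPKM in 19G and at 150.1, 208 and 123.5 in 20G. All 3 values of 20G were higher, the log2 difference was 1.06 (95% interval 0.21 to 1.92), and the limma adjusted p was 0.088. newGene_30034 stood at 165, 275 and 272 FPKM in 19G and at 429.8, 701 and 369 in 20G. Here too the lines did not overlap, with a log2 difference of 1.05, a 95% interval of 0.26 to 1.84 and a limma adjusted p of 0.07. The highest library of both was 20G replicate 2 and the lowest was 19G replicate 1.

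The steadiest loci, by the coefficient of variation over all 6 libraries, are described without a test. newGene_22610, given above, had a coefficient of 9.72%. newGene_24076 followed with 11.2%, at 17.7, 21.1 and 22.3 FPKM in 19G and 23.8, 19.2 and 23.2 in 20G. newGene_6523 had 11.3%, at 31.2, 33.5 and 31.6 FPKM in 19G and 25.8, 36.6 and 30.6 in 20G. In these loci the lines overlapped and no library was more than 1.5 times another. newGene_11811, newGene_28235 and newGene_23063 came next, with 11.9%, 12.0% and 12.8%. Their 6 values ran from 24.4 to 33.7 FPKM, from 18.7 to 27.1 and from 22.0 to 31.4 in turn.

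Together the 200 loci made up 1.63% of all FPKM of 19G replicate 1, and 2.39% and 2.43% in replicates 2 and 3 of that line. In 20G they took 2.07%, 2.64% and 2.11% in replicates 1 to 3. The line means were 2.15 ± 0.45% in 19G and 2.27 ± 0.32% in 20G (SD, n = 3), and the values of the lines overlapped. All 13716 new loci together took between 7.02% and 9.10% of summed FPKM.

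Across the 200 loci, which share their libraries and are not independent, Pearson's r of log2(FPKM + 1) was 0.925 to 0.959 between libraries of 20G, 0.870 to 0.944 between those of 19G and 0.756 to 0.826 between lines. In the whole set of tested loci, r was 0.951 to 0.974 within 20G and 0.886 to 0.972 within 19G. Between lines it was 0.746 to 0.796. The rule chose loci that are high in both lines, so nothing is read from the distance between these sets. The numbers in the identifiers of the 200 loci ran from 74 to 30408, and a single pair had successive numbers, newGene_17805 and newGene_17806. The sources used here do not say what the numbering follows. The pair did not share a profile: newGene_17805 stood at 23.3, 32.9 and 33.5 FPKM in 19G and at 29.8, 52.9 and 27.4 in 20G, while newGene_17806, given above, was highest in 19G replicates 2 and 3. Whether several of the 200 loci belong to one transcript was not tested.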

How the data were processed

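The deposited values are FPKM per locus, computed by the authors, with 1 file for each of the 6 libraries; the labels name the unit. Per the labels' protocols, the libraries were made from poly(A) RNA enriched with oligo(dT) beads. The sources used here give no aligner, assembler, genome build or filter. FPKM carries no counts: no step common to the low values was recovered, and depth is unknown. The 200 loci, the rules for naming loci and the tests were chosen with earlier results of these data known. Loci reaching 1 FPKM in at least 3 libraries were tested on log2(FPKM + 1), a scale that shrinks differences of low loci. The test was limma 3.58.1 in R 4.3.3 (mean-variance trend, no covariates, two-sided, Benjamini-Hochberg over 28292 loci). It was tried on simulated data with planted differences of 2 or 3 in size and no shift common to a library. That trial does not cover smaller differences or such shifts. Groups and replicate numbers came from sample titles. Loci named are, by rule, those with the highest minimum, the largest called differences, the lowest variation, ranks next to the edge, extreme ratios of 19G replicate 1, the largest differences not past the test and the smallest adjusted p among lesser ones. The 100 loci left out were taken over loci of every kind. Alternatives were another pseudocount, other filters, scalings and variance models, array weights, a replicate block and leaving out each library.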

Additional observations from a re-analysis of the deposited data

How the results depend on the processing

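The 5 loci lower and 3 loci furthest higher in 20G kept their call under all 15 alternatives to the fit. For the 10 called loci, 143 of 150 alternative values met the call rule and 7 did not. The tally held 7 more loci, the 4 past the adjusted p alone and the 3 largest differences not past it. Judged by the adjusted p alone, 88 of their 105 values stayed on their side, 15 no longer passed and 2, both of newGene_21899, newly passed. Other named loci were not in the tally, and some of them newly passed too. newGene_17806 did so without 19G replicate 1 (limma adjusted p = 0.0093). newGene_14924 did so with quantile normalization, without the trend and with array weights (limma adjusted p = 0.048, 0.045 and 0.022). It did not pass in the main fit (log2 difference 0.80, limma adjusted p = 0.072) or in the other alternatives. By the call rule newGene_14870 was also called under 6 alternatives. Among the 17 loci of the tally, 0 values changed direction. Outside it, signs did change in named loci that had not passed the adjusted p. newGene_17806 went from -0.45 to 0.14 without 19G replicate 3, and newGene_500 from 0.13 to -0.19 without 20G replicate 2. With array weights, 16 loci were called, 12 of them lower in 20G, and 40 passed the adjusted p, 11 higher and 29 lower, while the shares of all tested loci rose to 21.1% and 35.2%; the median difference was -0.12, beside -0.05 over all tested loci. With each library left out in turn, the loci called ranged from 9 to 15, those higher from 4 to 5, those lower from 5 to 11, those past the adjusted p from 9 to 26, higher from 4 to 6 and lower from 5 to 20; over all tested loci the shares ranged from 15.4% to 20.1% and from 16.2% to 27.2%. The highest totals were without 19G replicate 1 and the lowest adjusted-p count was without 20G replicate 1. Loci without overlap ranged from 50 to 72, against 39.2% to 54.6% of all tested loci. The rule that chose the loci limits these counts, so nothing is read from that distance. The cause of the changes between these fits was not tested. Whether replicate numbers pair the libraries was not settled. Over tested loci, r between deviations from the line mean was 0.24, -0.01 and 0.13 for equal numbers. For unequal numbers it ran from -0.23 to 0.19. 19G replicates 1 and 3 lay closest to the 20G library of equal number, and 19G replicate 2 to 20G replicate 3 (r = 0.19). With the replicate block 10 loci were called, 16 passed the adjusted p, and newGene_30271 did not (limma adjusted p = 0.057). Leaving out the 100 most abundant new loci, in place of loci of any kind, kept 116 of the 200; ranking by the median kept 162, and rankings without 1 library kept 177 to 199. Without the 100 most abundant loci in the sum, the share was 2.11%, 2.81% and 2.87% in 19G replicates 1 to 3 and 2.50%, 3.31% and 2.60% in those of 20G. At 1.5-fold, 91 loci (45.5%) stood apart in 19G replicate 1, against 45.6% of all tested loci and 31.8% of the RefSeq genes of the same floor. Median-of-ratios scaling left 67 loci lowest in that library. Depth is unknown, so what it limits cannot be stated.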
